A study of Rattus norvegicus with 24 samples.

Results

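The genes described here are nuclear genes of respiratory complexes III, IV and V in rat soleus, a slow, postural, oxidative calf muscle. They were taken as every gene whose symbol in the authors' annotated table starts with Uqcr, Cox4, Cox5, Cox6, Cox7, Cox8 or Atp5, which gave 42 genes on 52 probes: 8 of complex III, 16 of complex IV and 18 of complex V. Most code for subunits. Atp5s and Atp5sl, which are not subunits of the synthase, the supercomplex factor Cox7a2l and the pseudogene-named Cox6c-ps1 share a prefix with them and are counted with that prefix's complex. Where a gene had several probes, the brightest on average across the 24 arrays stood for it; this applied to 9 genes. Of the 42, 41 entered the test, among 19526 features in all, and Cox8c, the testis form of subunit 8, was not well above background on any array. Cox7a1, the muscle form of subunit 7a, was not analysed here.

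Complex III passes electrons from ubiquinol to cytochrome c, complex IV passes them on to oxygen, and complex V, the ATP synthase, uses the resulting proton gradient to make ATP. Each complex also has subunits coded by mitochondrial DNA; all the genes described here are nuclear. Complex IV has several subunits in more than 1 form, with Cox6a2 and Cox8b the forms of heart and skeletal muscle and Cox6a1 and Cox8a their counterparts in most other tissues. Endurance training is known to increase the mitochondrial content of skeletal muscle.

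The study compared 3 groups of 8 female rats of about 14 weeks. Trained rats (TR) could run on a wheel in the cage at will for 8 weeks. Detrained rats (DETR) had that wheel for 4 weeks and none for the next 4, and sedentary rats (SED) were kept for 8 weeks with no wheel. Every rat of every group ran for 1 h on a forced wheel at 20 m per min, and the soleus was taken 24 h later, so all values describe muscle after an acute run; no unexercised group was analysed here. RNA came from a piece of the mid-belly of the muscle, 1 rat per array. In such bulk tissue, fewer mitochondria-rich fibres and less RNA per fibre cannot be told apart.

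Array identifiers place 8 arrays on each of 3 slides. DETR 1 to 6 shared slide 1 with SED 1 and 2, TR 1 to 4 shared slide 2 with SED 3 to 6, and TR 5 to 8, DETR 7 and 8 and SED 7 and 8 were together on slide 3, the only slide with both TR and DETR. Slide 3 was the dimmest: its arrays had a 75th percentile of spot signal of 95.5 to 338.8, against 816.7 to 1183.5 for slide 1 and 562.3 to 1493.5 for slide 2. On it, TR 7 (95.5), TR 8 (124.5) and TR 5 (133.2) were the dimmest. The median spread between spots of a probe was 33.9% on TR 2 and 21.9% on TR 5, against 6.66 to 10.65% on the other 22 arrays. Slide was therefore a term in every fit unless stated. Values are log2 signal relative to the array's 75th percentile, so a value of 1 is a doubling over that percentile, and levels of different probes are not compared.

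None of these genes differed between groups past the adjusted p of 0.05 (limma, Benjamini-Hochberg over 19526 features), and neither did any other feature, so the share called was 0% in all 3 comparisons. At an unadjusted p under 0.05, 0 of 41 genes passed for DETR against SED, beside 3.07% of features higher and 0.922% lower. For TR against SED, 2 of 41 passed as higher and 0 as lower, beside 6.03% and 4.30% of features. For TR against DETR, 1 of 41 passed as higher and 0 as lower, beside 4.15% and 5.97%. These shares of the 41 genes are close to or below those of all features.

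The fitted differences were small and their direction was mixed. For DETR minus SED, 29 of 41 were positive, with a median of 0.07 log2 (all features 0.03). For TR minus SED, 26 of 41 were positive, with a median of 0.03 (all features 0.01). For TR minus DETR, 11 of 41 were positive, with a median of -0.13 (all features -0.04). The count and sign for TR minus SED depended on the processing: 19 of 41 were positive with quantile normalization (median -0.01), 20 in the authors' table (median -0.01), 12 with no slide term (median -0.06) and 11 with normexp background correction (median -0.08, where the median of all features moved to 0.14). The median of all features in that comparison was -0.03 with quantile normalization, -0.04 in the authors' table and 0.04 with no slide term. Under the same 4 alternatives the gene median stayed positive for DETR minus SED and negative for TR minus DETR. For DETR minus SED it was 0.02 with quantile normalization and in the authors' table, as for all features. It was 0.11 with no slide term and 0.07 with normexp, where all features were at 0.03. For TR minus DETR it was -0.10, -0.07, -0.15 and -0.20 in that order, against -0.07, -0.07, -0.01 and 0.12 for all features. Within slide 3 the median for DETR minus SED was -0.04. TR and DETR are both set against the same SED arrays, so these comparisons are not independent. The 95% interval of the fold change lay within 1.5-fold either way for 30, 36 and 26 of the 41 genes in that order, so for those genes larger changes lay outside the interval; for the others they did not.

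**Figure D1:**
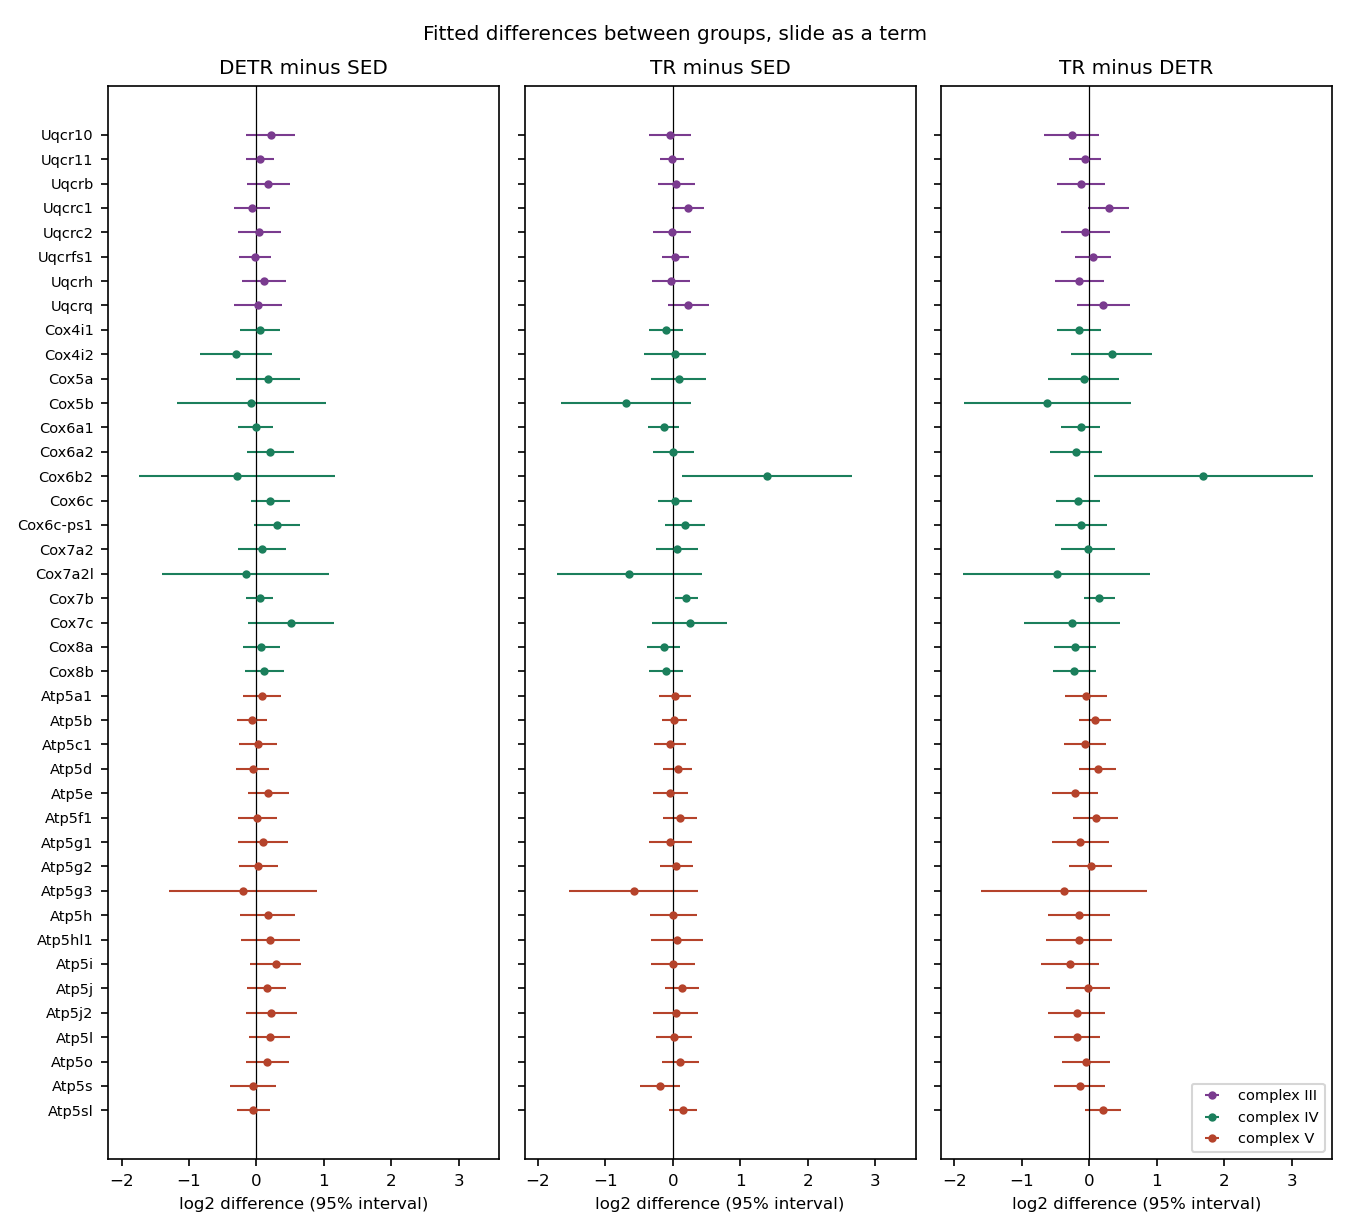
Fitted log2 difference of each of the 41 tested genes (points) with its 95% interval (bars), in 3 panels by comparison, coloured by complex. Most intervals span 0, and the widest belong to Cox6b2, Cox7a2l, Cox5b and Atp5g3.

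Complex III includes the core proteins Uqcrc1 and Uqcrc2 and the Rieske iron-sulfur protein Uqcrfs1, which carries electrons towards cytochrome c. Uqcrc1 ranged from 4.34 to 4.92 (median 4.53) in SED, from 4.16 to 4.97 (median 4.80) in DETR and from 4.12 to 5.25 (median 4.68) in TR, so all groups overlapped. Its difference was 0.22 ± 0.11 (SE) for TR minus SED (adjusted p = 0.506) and 0.29 ± 0.15 for TR minus DETR (adjusted p = 0.496). The difference from SED in TR was 0.14 ± 0.10 without TR 2, 0.18 ± 0.11 without TR 7 and 0.0049 ± 0.07 without TR 2, TR 7 and TR 8. Uqcrfs1 differed by 0.04 ± 0.10 for TR minus SED, and Uqcrc2 by -0.01 ± 0.13. The hinge protein Uqcrh and the small subunits Uqcrb, Uqcr10, Uqcr11 and Uqcrq were the other complex III genes taken by symbol. For DETR minus SED, Uqcr10 was at 0.21 ± 0.18, Uqcrb at 0.18 ± 0.15 and Uqcrh at 0.12 ± 0.16. Uqcrq was at 0.23 ± 0.15 for TR minus SED, at 0.13 ± 0.13 without TR 2 and at 0.20 ± 0.15 without TR 7. The 95% interval of each spanned 0.

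In complex IV, the 2 genes with an unadjusted p under 0.05 for TR against SED were Cox7b, a small structural subunit, and Cox6b2, the testis form of subunit 6b. Cox7b ranged from 5.52 to 6.19 (median 6.02) in SED, from 5.44 to 6.35 (median 6.14) in DETR and from 5.57 to 6.74 (median 5.89) in TR. The groups overlapped, and the 8 arrays of slide 3 (5.44 to 5.65) all lay below the other 16 (5.96 or above). The difference was 0.20 ± 0.08 for TR minus SED (unadjusted p = 0.027, adjusted p = 0.445, limma). Without TR 2, whose 6.74 was the highest value, it was 0.12 ± 0.06, with an unadjusted p of 0.0603 (adjusted p = 0.525, limma). Without TR 7 it was 0.21 ± 0.09 (unadjusted p = 0.0233, adjusted p = 0.512, limma). Without TR 2, TR 7 and TR 8 it was 0.13 ± 0.06 (unadjusted p = 0.0297, adjusted p = 0.317, limma).

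Cox6b2 ranged from 0.78 to 3.70 (median 3.31) in SED, from 0.10 to 3.91 (median 3.45) in DETR and from 0.64 to 6.53 (median 3.54) in TR. On slides 1 and 2 all 16 arrays lay between 3.02 and 4.43. On slide 3 the values spread from 0.10 to 6.53, with TR 7 at 6.53 and TR 8 at 4.90 above the other 6 arrays, which reached 2.56. The difference was 1.40 ± 0.61 for TR minus SED (adjusted p = 0.448) and 1.69 ± 0.78 for TR minus DETR (adjusted p = 0.484, limma), the only one past an unadjusted p of 0.05 in that comparison. Within slide 2, TR minus SED was 0.13 ± 0.23, and without TR 7 and TR 8 it was 0.40 ± 0.27. The difference therefore rests on those arrays of slide 3.

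Cox4i1 and Cox4i2 are the ubiquitous and the lung form of subunit 4. Cox4i1 ranged from 7.39 to 7.63 in SED, from 7.20 to 7.72 in DETR and from 6.67 to 7.91 in TR, and its difference for TR minus SED was -0.10 ± 0.12. Cox4i2 split by slide rather than by group: its values were -0.10 to 0.75 on slides 1 and 2 and 1.84 to 4.02 on slide 3. SED rats alone showed this, with -0.10 to 0.64 on slides 1 and 2 and 3.83 and 3.84 on slide 3. With slide as a term its differences were -0.30 ± 0.26, 0.03 ± 0.22 and 0.34 ± 0.29 for DETR minus SED, TR minus SED and TR minus DETR.

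Cox5a and Cox5b are nuclear subunits of the enzyme's matrix side, and Cox7a2l is a factor that joins complexes III and IV into supercomplexes. Cox5a differed by 0.17 ± 0.23 for DETR minus SED and 0.08 ± 0.20 for TR minus SED. The second was -0.10 ± 0.15 without TR 2 and 0.17 ± 0.19 without TR 7. Cox5b ranged from 6.89 to 7.41 in SED, from 7.07 to 7.39 in DETR and from 2.44 to 7.41 in TR, where TR 2 was at 2.44 and the other 7 arrays at 6.64 or above. Cox7a2l had the same pattern, from 4.75 to 5.15 in SED and 4.87 to 5.25 in DETR, with TR 2 at -0.10 and the other TR arrays from 4.80 to 5.07. For TR minus SED, Cox5b was at -0.70 ± 0.46 and Cox7a2l at -0.65 ± 0.52. Without TR 2 they were at -0.08 ± 0.10 and 0.05 ± 0.07. In the authors' table, with TR 2 kept, they were at -0.22 ± 0.15 and -0.27 ± 0.26. The size of both differences thus depended on the processing, and the cause was not tested.

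Of the small subunits, Cox6c was at 0.20 ± 0.14 for DETR minus SED and Cox7c at 0.51 ± 0.31, with adjusted p = 0.9996 for both (limma). The pseudogene-named Cox6c-ps1 was the only one of the 41 whose DETR arrays (4.01 to 4.22) all lay above the SED arrays (3.82 to 4.01), by a margin under the rounding, beside 0.0666% of features. Its difference was 0.30 ± 0.16 (adjusted p = 0.9996). As a plain difference of group means its second probe had the opposite sign. Within slides, though, that probe's DETR arrays lay above its SED arrays, at -1.26 to -1.12 against -1.73 and -1.47 on slide 1. On slide 3 they were at -0.86 and -0.17, against -1.39 and -0.90. The signal of Cox6c-ps1 may be shared with Cox6c, whose sequence it resembles. Cox7a2, the ubiquitous form of subunit 7a, was at 0.08 ± 0.17 and 0.06 ± 0.15 against SED in DETR and TR. The ubiquitous form of subunit 6b, Cox6b1, is listed under another symbol and outside the rule; its value was 0.22 ± 0.20 for DETR minus SED and -0.11 ± 0.18 for TR minus SED.

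**Figure D2:**
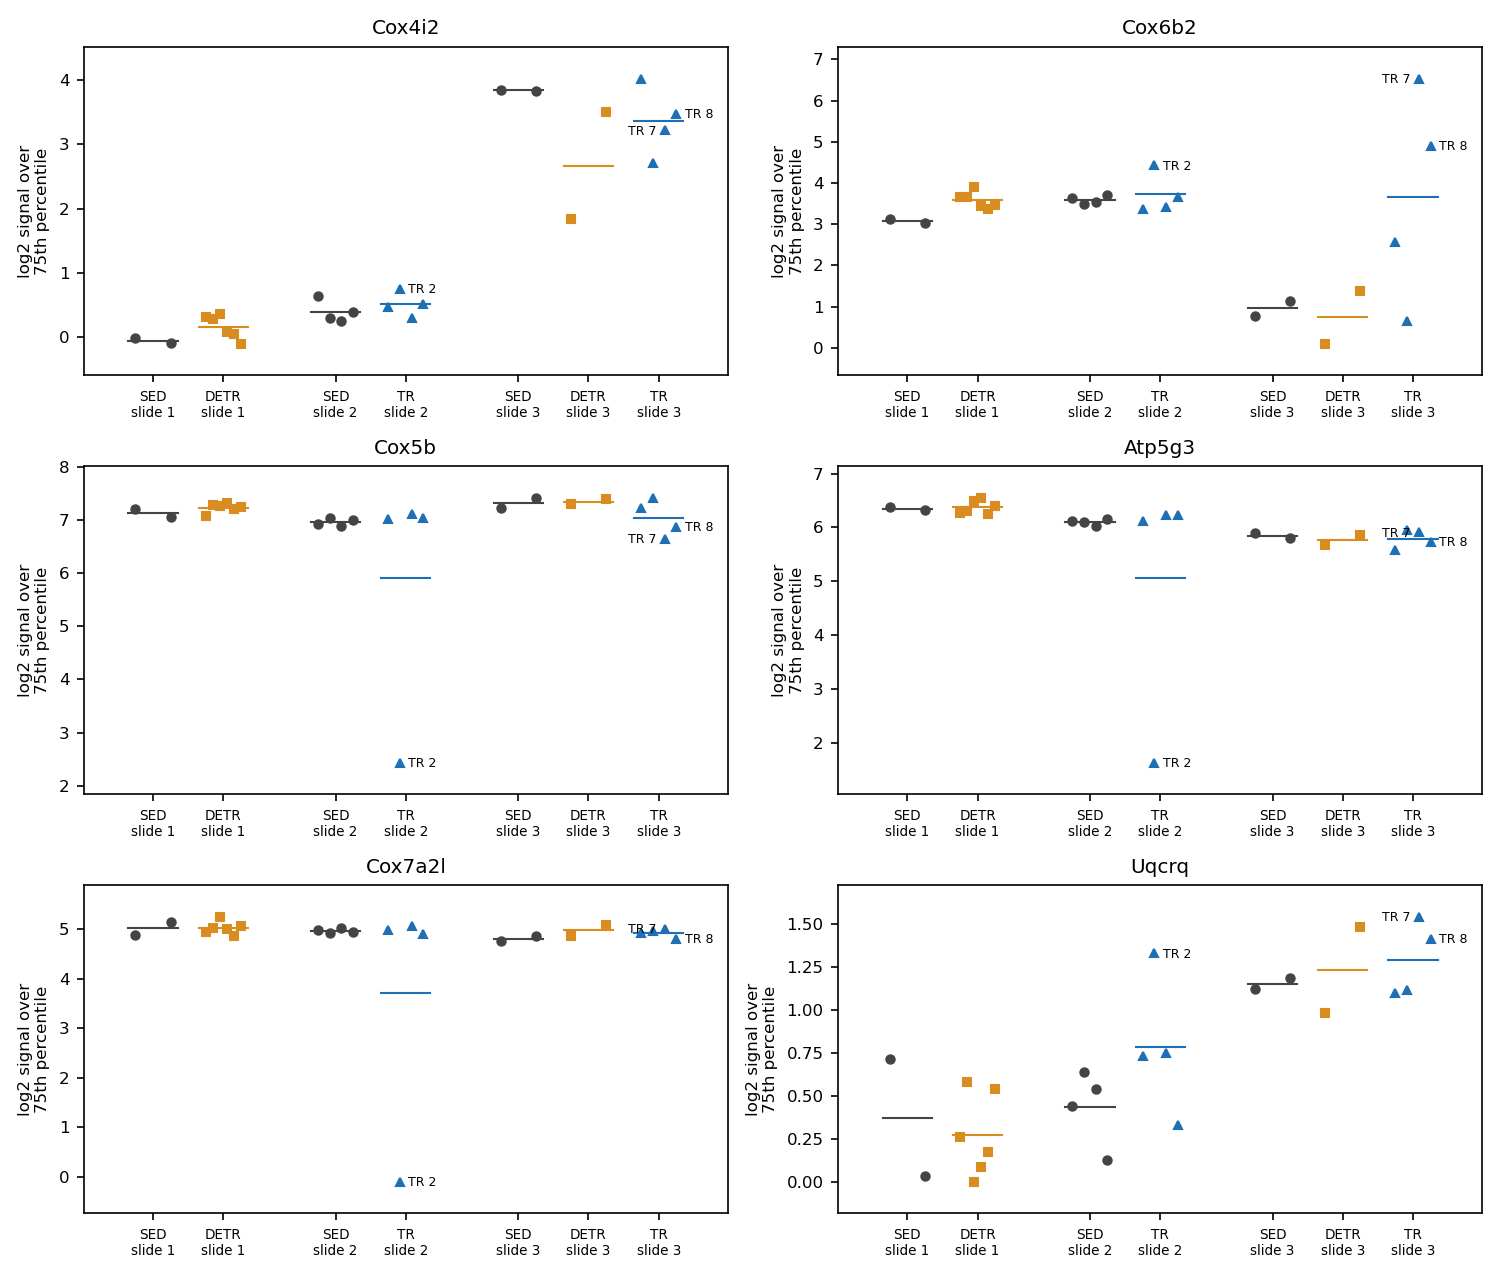
Log2 signal over the array's 75th percentile for 6 genes, by slide and group; each symbol is 1 array and each line the mean of the arrays above its label. Cox4i2 is higher on slide 3 in every group, Cox6b2 is highest on TR 7 and TR 8, and TR 2 is far below the rest for Cox5b, Atp5g3 and Cox7a2l.

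Complex V was described by the F1 head, the stalks and the membrane part. In the head, the catalytic beta subunit Atp5b ranged from 4.97 to 5.74 (median 5.41) in SED, from 4.83 to 5.89 (median 5.61) in DETR and from 4.93 to 5.87 (median 5.16) in TR. It differed by -0.07 ± 0.10 for DETR minus SED and 0.02 ± 0.09 for TR minus SED. The alpha subunit Atp5a1 was at 0.08 ± 0.14 and 0.03 ± 0.12. The central stalk subunits of F1, Atp5c1, Atp5d and Atp5e, were between -0.05 and 0.18 in both comparisons against SED.

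Of the peripheral stalk subunits, Atp5f1 was at 0.10 ± 0.12, Atp5j at 0.13 ± 0.12 and Atp5o at 0.11 ± 0.13 for TR minus SED. Atp5h was at 0.01 ± 0.17. Without TR 2, Atp5f1 was at 0.03 ± 0.11, Atp5j at 0.06 ± 0.12 and Atp5o at 0.0017 ± 0.11. Without TR 7 instead they were at 0.17 ± 0.11, 0.21 ± 0.10 and 0.175 ± 0.12, so single arrays moved them either way. Atp5i, in the membrane part, ranged from 7.62 to 8.01 in SED, from 7.88 to 8.31 in DETR and from 6.89 to 8.57 in TR. The SED and DETR ranges overlapped, and the difference for DETR minus SED was 0.29 ± 0.18 (adjusted p = 0.9996, limma). Atp5l was at 0.20 ± 0.15 and Atp5j2 at 0.22 ± 0.18 in the same comparison. Atp5hl1, a gene resembling Atp5h, was at 0.21 ± 0.21, and the probes of such a pair may pick up each other's transcripts.

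The c ring through which protons pass is coded by Atp5g1, Atp5g2 and Atp5g3. Atp5g3 ranged from 5.80 to 6.37 in SED, from 5.67 to 6.55 in DETR and from 1.65 to 6.24 in TR, with TR 2 at 1.65 and the other TR arrays at 5.58 or above. Its difference for TR minus SED was -0.58 ± 0.46, and 0.03 ± 0.08 without TR 2. In the authors' table, with TR 2 kept, it was 0.04 ± 0.08, so the difference depended on the processing. A second Atp5g3 probe read 2.84 on TR 2, against 3.91 to 4.13 elsewhere on slide 2. Atp5g1 and Atp5g2 differed by -0.04 ± 0.16 and 0.05 ± 0.12 for TR minus SED. Atp5s and Atp5sl were at -0.19 ± 0.14 and 0.16 ± 0.10.

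The probes of the 9 genes with several did not always give 1 sign, compared as plain differences of group means with no slide term. They were of opposite sign for 1 gene for DETR minus SED (Cox6c-ps1), 2 for TR minus SED (Atp5g2 and Uqcr11) and 3 for TR minus DETR (Atp5g2, Atp5d and Cox6c-ps1). The groups are unevenly spread over slides, so these signs also carry slide differences and do not measure probe disagreement alone. For Cox6c-ps1 the opposite sign for DETR minus SED was absent within slide 1 and within slide 3. The second Atp5d probe was dim, at -4.67 to -2.71.

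The muscle forms were set against the ubiquitous forms as a log2 ratio within each array, which shows whether 1 form moved relative to the other. Cox6a2 over Cox6a1 ranged from 2.51 to 4.31 (median 2.69) in SED, from 2.81 to 4.46 (median 3.05) in DETR and from 2.58 to 4.44 (median 3.77) in TR. Across slides 1 and 2 it was 2.51 to 3.51, and on slide 3 it was 4.04 to 4.46 in all groups. The differences with slide as a term were 0.21 ± 0.14 for DETR minus SED, 0.14 ± 0.12 for TR minus SED and -0.07 ± 0.16 for TR minus DETR. Cox8b over Cox8a ranged from 2.29 to 2.67 (median 2.46) in SED, from 2.35 to 2.94 (median 2.69) in DETR and from 2.31 to 2.68 (median 2.49) in TR. Its differences were 0.05 ± 0.07, 0.03 ± 0.06 and -0.01 ± 0.08. No p is given for these ratios; every difference lay within 2 SE of 0. Single arrays moved them: without TR 2, TR minus SED was 0.03 for Cox6a2 over Cox6a1 and 0.0007 for Cox8b over Cox8a. Without DETR 8, Cox8b over Cox8a was 0.0041 for DETR minus SED and 0.04 for TR minus DETR; without DETR 7 these were 0.13 and -0.11.

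**Figure D3:**
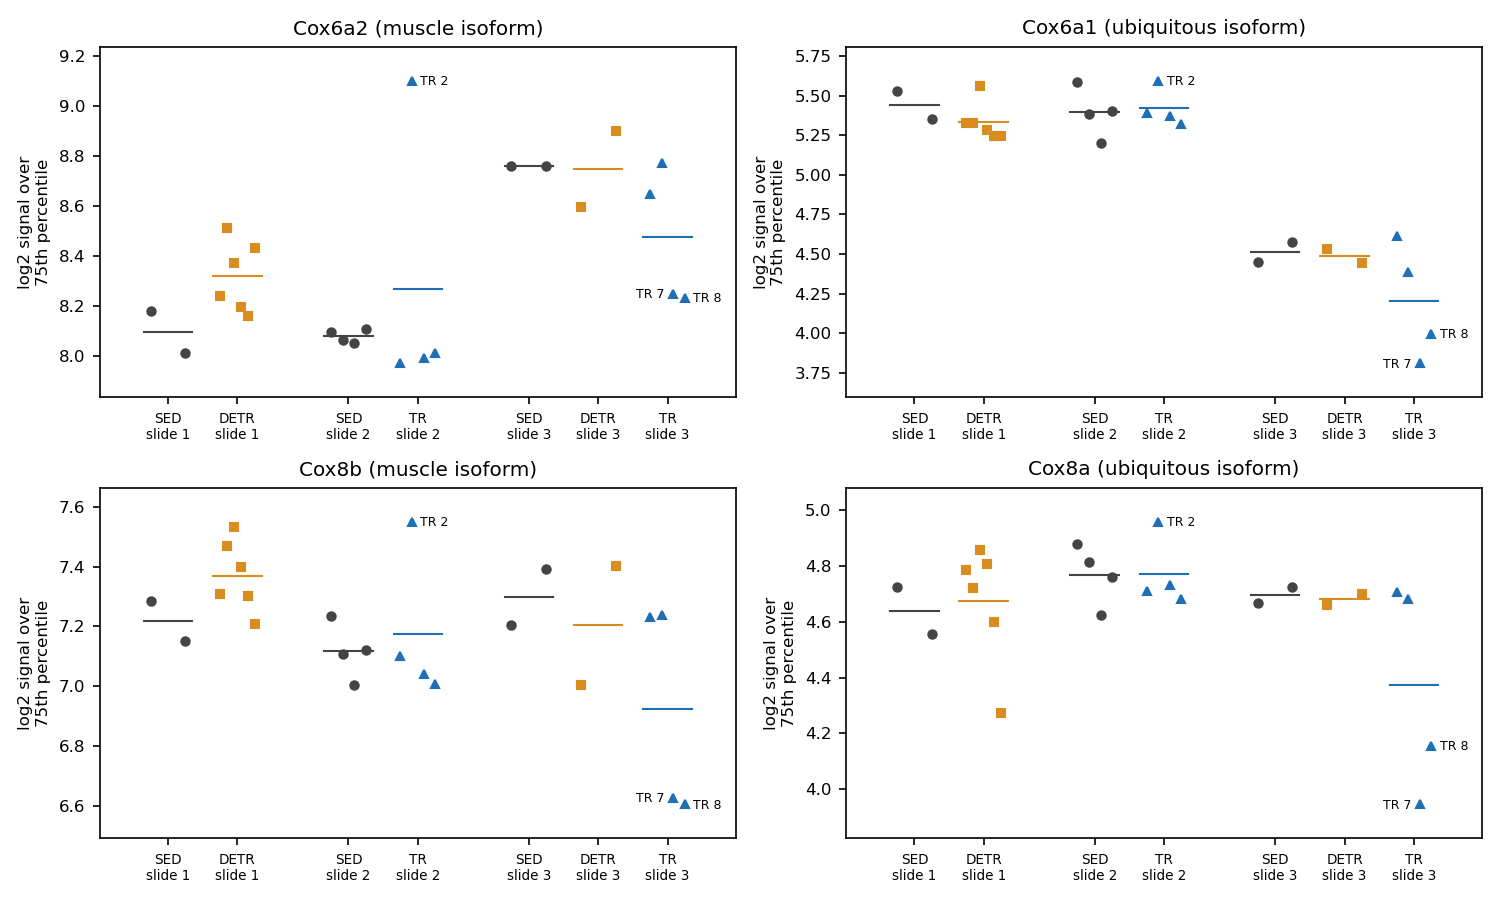
Log2 signal over the array's 75th percentile for the muscle forms Cox6a2 and Cox8b and the ubiquitous forms Cox6a1 and Cox8a, by slide and group; symbols are arrays and lines are means. TR 2 is highest on slide 2 for all 4 genes, TR 7 and TR 8 are lowest on slide 3, and Cox6a1 is lower on slide 3 in every group.

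**Figure D4:**
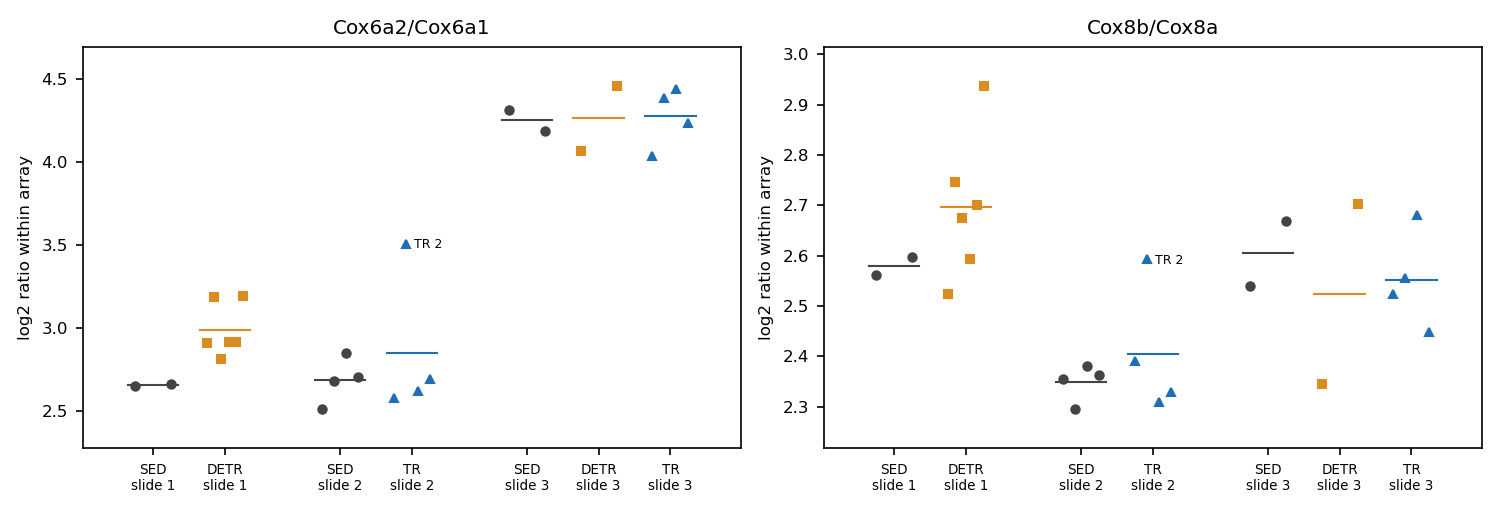
Log2 ratio of the muscle form to the ubiquitous form within each array, by slide and group; symbols are arrays and lines are means. For Cox6a2 over Cox6a1 all 8 arrays of slide 3 lie at 4.04 to 4.46, above every array of slides 1 and 2.

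The single genes of these pairs gave small differences too. Cox6a2 ranged from 8.01 to 8.76 in SED, from 8.16 to 8.90 in DETR and from 7.97 to 9.10 in TR, and its differences against SED were 0.20 ± 0.17 in DETR and 0.01 ± 0.15 in TR. The TR value was -0.15 ± 0.09 without TR 2 and 0.05 ± 0.15 without TR 7. Cox6a1 was at -0.01 ± 0.13 and -0.14 ± 0.11. Cox8b was at 0.12 ± 0.14 and -0.10 ± 0.12, and Cox8a at 0.07 ± 0.13 and -0.14 ± 0.12. For TR minus DETR, Cox8b was at -0.22 ± 0.15 and Cox8a at -0.21 ± 0.15.

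The stretch just before the start of a gene is shown for 3 of these genes, because they are the forms compared above and their upstream letters differ. Sequences are from RefSeq, build GRCr8, 5′ to 3′ on the gene's own strand, in lower case with matches to the motifs below in capitals. Cox6a2 lies on the minus strand at chr1:192219717-192219966, Cox8b on the minus strand at chr1:205408274-205408523 and Cox8a on the minus strand at chr1:213833624-213833873.
Cox6a2: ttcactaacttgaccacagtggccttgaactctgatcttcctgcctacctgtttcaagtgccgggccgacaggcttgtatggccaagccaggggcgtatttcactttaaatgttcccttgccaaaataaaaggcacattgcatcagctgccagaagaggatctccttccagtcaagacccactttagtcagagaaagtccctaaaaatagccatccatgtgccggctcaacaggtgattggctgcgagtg
Cox8b: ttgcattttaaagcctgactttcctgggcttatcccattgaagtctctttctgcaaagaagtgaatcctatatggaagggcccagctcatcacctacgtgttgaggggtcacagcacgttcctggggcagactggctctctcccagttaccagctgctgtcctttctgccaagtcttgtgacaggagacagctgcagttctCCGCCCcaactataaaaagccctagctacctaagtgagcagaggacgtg
Cox8a: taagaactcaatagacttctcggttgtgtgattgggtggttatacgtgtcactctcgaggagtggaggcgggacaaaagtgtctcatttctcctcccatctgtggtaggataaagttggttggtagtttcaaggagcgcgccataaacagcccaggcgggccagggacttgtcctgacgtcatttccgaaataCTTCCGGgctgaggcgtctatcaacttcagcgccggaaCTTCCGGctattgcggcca

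The letters of 5 motifs were searched on both strands in 300 bases around the start (250 before, 50 after) for the 33 of 42 genes with a RefSeq entry and for all 33469 entries. The ETS motif CCGGAAG was in 11 of 33 (33.3%, all entries 8.7%). NRF1 (GCGCA, any base, then GCGC) was in 6 (18.2%, all entries 4.3%), ERR AAGGTCA in 6 (18.2%, 4.6%), YY1 AAGATGGCG in 3 (9.1%, 1.7%) and Sp1 GGGCGG in 13 (39.4%, 33.1%). No match of one motif overlapped another. The median number of CpG pairs was 16 in these genes and 7 in all entries; the 2 sets thus differ in base composition as well. Cox6a2 and Cox8b each had 5 CpG pairs and Cox8a 16; within the printed stretch Cox8a held the ETS motif at 2 places, Cox8b the Sp1 motif at 1 and Cox6a2 none of the 5. These are descriptions of letters and say nothing of whether a factor binds.

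In SED rats, the difference between slide 3 and slide 2 exceeded every fitted group difference for 26 of 41 genes. That slide difference is a plain one between means of 2 and 4 arrays, so noise alone could make it the larger. The matching share of all features was not worked out, so the count does not rank slide against group. In the same SED arrays, 28 of 41 genes were lower on slide 3, against 44.8% of all features (median -0.15, all features 0.10). On slide 2, TR 2 was the highest array for 36 of 41 genes, against 42.2% of all features, although Atp5g3, Cox5b and Cox7a2l were over 3 log2 lower there, as were 336 of 19526 features. On slide 3, TR 7 and TR 8 were both below all other arrays for 31 of 41 genes, against 21.0% of all features. Their median deviations over the 41 genes were -0.64 and -0.53, against 0.07 and 0.03 over all features. Other gene lists stood apart on the same arrays: on TR 7 and TR 8 the mean level of macrophage markers was -0.58 and -0.17 (other slide 3 arrays -1.77 to -1.11), of endothelial markers -0.45 and -0.39 (-1.22 to -0.71), of adipocyte markers -0.86 and -0.53 (-2.02 to -1.12) and of Schwann cell markers 0.11 and -0.34 (-2.03 to -0.38). Complex I genes were at 4.33 and 4.42 (4.76 to 4.96) and complex II genes at 4.69 and 4.74 (5.04 to 5.30). Not all lists stood apart: slow sarcomere genes, at 8.12 and 8.14, lay within the range of the other arrays (7.92 to 8.29). So did fast sarcomere genes, at 3.34 and 3.10 (1.29 to 5.16), and tendon markers, at -1.61 and -2.27 (-2.57 to -0.11). Erythroid markers were below the other arrays on TR 7 (2.80) and above them on TR 8 (4.07), against 3.02 to 3.62. The part of these markers in the result was not tested.

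**Figure D5:**
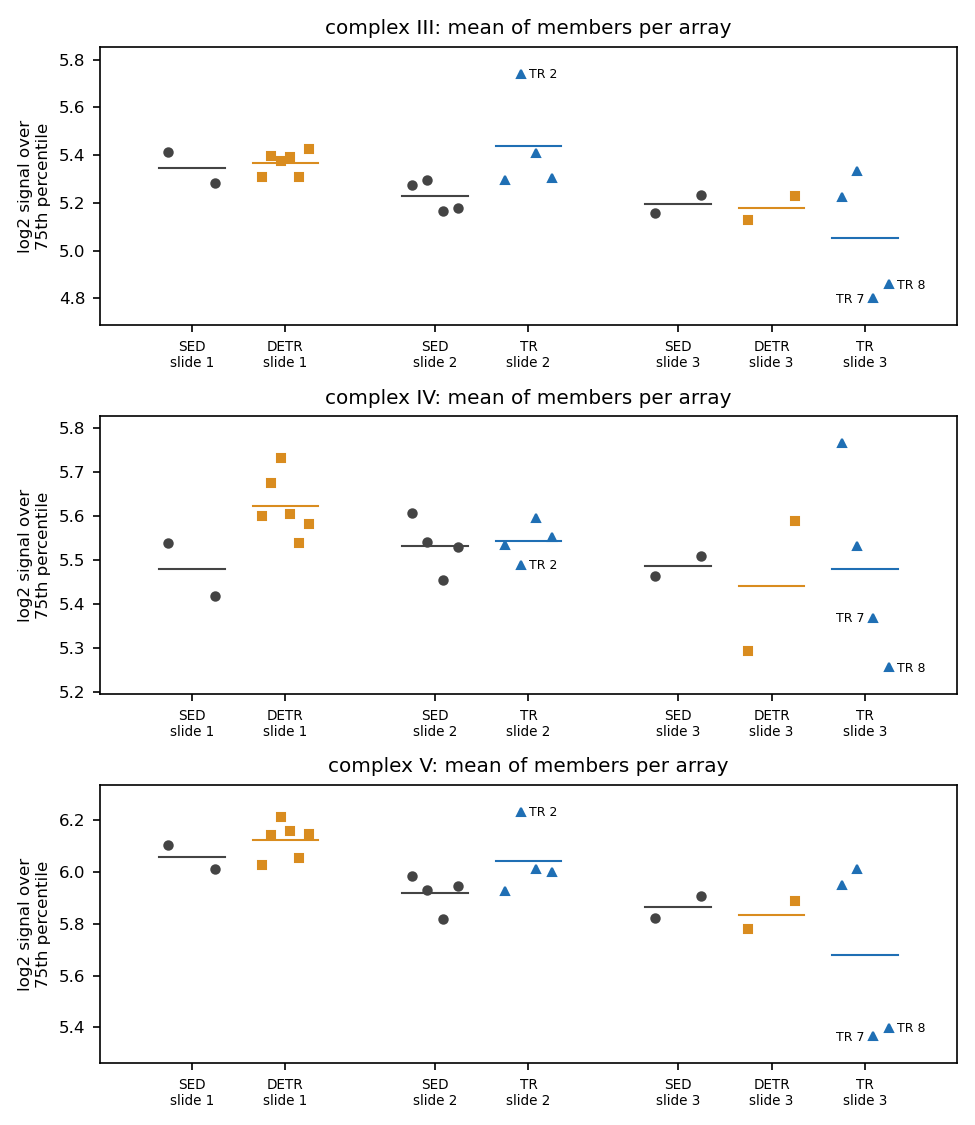
Mean log2 signal over the array's 75th percentile of the tested genes of each complex, by slide and group; symbols are arrays and lines are means. For complexes III and V TR 2 is the highest array of slide 2, and TR 7 and TR 8 are the lowest of slide 3.

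The direction of the TR differences depended on which TR arrays entered. Leaving out TR 2 alone changed the sign of TR minus SED for 15 of 41 genes and moved another 20 by over 1.5 times, and leaving out TR 7 alone changed 7 and moved 24. Within slide 2 the median over the 41 genes was 0.19 for TR minus SED and 37 were positive, and within slide 3 it was -0.20 and 7 were positive. Without TR 2 in slide 2 it was 0.06, and without TR 7 and TR 8 in slide 3 it was 0.09. Leaving arrays out of the whole fit, after the values had been seen, gave a median of 0.18 without TR 7 and TR 8, 0.11 without TR 2, TR 7 and TR 8, 0.18 without TR 5, TR 7 and TR 8 (the dimmest) and -0.10 without TR 2 and TR 5 (the largest spread between spots). At an unadjusted p under 0.05, 18 genes were higher and 0 lower in the first of these (all features 6.59% and 6.37%), 11 and 0 in the second (5.25% and 8.66%), 17 and 0 in the third (5.16% and 4.19%) and 2 and 2 in the fourth (5.25% and 6.95%). TR 7 and TR 8 were chosen partly because their own values for these genes were low, which raises the median when they are left out. All of these sets but the last leave them out. The second and the last leave out TR 2, the highest array of slide 2 for 36 of 41 genes. Leaving out TR 2 alone lowered the median to -0.04. The last also leaves out TR 5, whose median deviation over the genes was 0.10. The medians and counts of all these sets are therefore descriptions. No gene passed the adjusted p in any of them (limma). The part of signal strength and spot spread in these differences was not tested.

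No gene of the other lists passed the adjusted p (limma), and the genes given for each list are those of smallest p or known regulators. Of 36 tested complex I genes, 25 were positive for DETR minus SED, 19 for TR minus SED and 9 for TR minus DETR; Ndufb2 was at 0.25 ± 0.19, Ndufa10 at 0.20 ± 0.08 and Ndufa9 at 0.21 ± 0.09 in that order. Of 5 complex III assembly factors, 2, 2 and 3 were positive, with Uqcc2 at 0.18 ± 0.12 for DETR minus SED and Uqcc1 at 0.20 ± 0.15 and 0.42 ± 0.19 for TR minus SED and TR minus DETR (0.05 ± 0.11 and 0.32 ± 0.14 without TR 2). Of 20 complex IV assembly factors, 14, 4 and 3 were positive. Cmc1 was at -0.16 ± 0.08 for TR minus SED, and Coa5 had the smallest p for DETR minus SED, at -0.43 ± 0.15, and for TR minus DETR, at 0.46 ± 0.17. Atpif1, the inhibitor of the ATP synthase, was at -0.77 ± 0.37 for TR minus SED and -1.0 ± 0.47 for TR minus DETR. It read 0.40 on TR 2 against 3.82 to 4.15 on the rest of slide 2, and without TR 2 these differences were -0.30 ± 0.14 and -0.69 ± 0.17. Cyc1, the cytochrome c1 of complex III, was at 0.13 ± 0.19 for DETR minus SED and 0.11 ± 0.16 for TR minus SED (-0.04 ± 0.13 without TR 2). Of 9 regulators of mitochondrial genes, Ppargc1a was at 0.14 ± 0.16, Nrf1 at -0.09 ± 0.08, Esrra at -0.01 ± 0.12 and Tfam at 0.01 ± 0.10 for TR minus SED. Ppargc1a and Nrf1 were dim, at -3.28 to -2.38 and -2.50 to -1.99 on slide 2. Polrmt was at -0.13 ± 0.09 for DETR minus SED and Ppargc1b at -0.19 ± 0.13 for TR minus DETR. Of 4 complex V assembly factors, 1 was positive in each comparison, with Fmc1 at -0.66 ± 0.38 for TR minus SED (-0.15 ± 0.11 without TR 2, where it read 0.73 against 4.38 to 4.76 on the rest of slide 2) and Tmem70 at -0.11 ± 0.10 and 0.17 ± 0.11 for DETR minus SED and TR minus DETR. Of 4 complex II genes, 3 were positive for TR minus SED, with a median of 0.03; Sdhd was at 0.09 ± 0.10, and Sdha was at -0.05 ± 0.08 and 0.09 ± 0.09 for DETR minus SED and TR minus DETR.

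Markers of other cell types and fibre types were also measured. All 9 slow sarcomere genes were tested, and their mean level was 7.18 to 8.15 in SED, 7.36 to 8.16 in DETR and 7.21 to 8.29 in TR. The mean of 13 fast sarcomere genes was 0.44 to 5.16 in SED, 2.94 to 5.06 in DETR and 1.29 to 4.61 in TR. The mean of 9 of 10 adipocyte markers was -2.03 to -0.88 in SED, -2.02 to -0.88 in DETR and -1.50 to -0.47 in TR, with Lep well above background on 0 arrays. The mean of 10 of 11 macrophage markers was -1.26 to -0.89 in SED, -1.77 to -0.81 in DETR and -1.58 to -0.17 in TR. For TR minus SED, 8 of 9 adipocyte and 8 of 10 macrophage markers were positive, and 11 of 13 fast sarcomere genes were negative, none past the adjusted p (limma). The smallest p-values for TR minus SED belonged to Retn (0.88 ± 0.30) of the adipocyte list, Mrc1 (0.75 ± 0.22) of the macrophage list, Myl2 (0.29 ± 0.11) of the slow list and Myl1 (0.41 ± 0.08) of the fast list. Mrc1 was dim, at -5.79 to -4.42 on slide 2. Myl1 was among the 2 positive genes of the fast list, whose median was -0.77 for TR minus SED. For the same comparison, 7 of 8 endothelial and 5 of 6 Schwann cell markers were positive, and 10 of 10 tendon and 3 of 3 erythroid markers negative. The mean level of the tendon markers was -2.28 to 0.71 in SED, -2.50 to -0.14 in DETR and -2.88 to -0.11 in TR. Their part in the differences above was not tested.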

How the data were processed

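RNA of 24 soleus samples was measured on 1-colour Agilent arrays, 1 rat each. The scanner files hold spot intensity from Agilent Feature Extraction, background-subtracted within each array, per the file headers, which name version 11.5.1.1; the submitters' processing notes name 11.5.11.1. The authors deposited a table of log2 values whose columns share 1 distribution with a median of 6.26; its tool was not given in the sources used here. Of 62976 spots, 4259 controls were left out and none of the others was saturated. Processed signals were log2-transformed, the array's 75th percentile subtracted, outlier spots dropped and spots of a probe averaged, giving 30367 probes. A feature was kept if 8 or more of the 24 arrays had it well above background. limma 3.58.1, under R 4.3.3, fitted all 24 arrays on group plus slide, with Benjamini-Hochberg adjustment over 19526 features. The script was tested on simulated data. With 1 array per rat, the spread that p-values rest on joins differences between rats and those of the measurement, which cannot be told apart. The 8 arrays per group limit precision.

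The genes and lists were chosen with earlier results of these data known. Named genes were the isoform pairs, Cox4i1, Cox4i2, core subunits, the 3 smallest p-values per complex, comparison and direction, and genes failing the filter; other lists gave the gene of smallest p per comparison (for cell and fibre type markers only TR against SED is printed), and further genes of those lists were named after their values were seen. Replicate numbers do not pair the samples. Alternatives were other normalizations, filters, slide handling, priors, probes, groups and arrays left out; the 4 sets of TR arrays left out were added after the data were seen.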

Additional observations from a re-analysis of the deposited data

Results flagged for a closer look

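In 123 groups of 8 arrays, 7 held an array far from the other 7, where chance gives about 1 in 20. TR 2 was such an array for Atp5g3 (1.65), Cox5b (2.44) and Cox7a2l (-0.1). SED 1 was high for Cox4i1 (7.63), DETR 8 was high for Cox7c (4.22), and DETR 6 was low for Cox8a (4.27). DETR 7 was low for the mean of complex IV genes (5.29). At 7 of 123, the flags were close to the chance rate, but the Atp5g3, Cox5b and Cox7a2l flags all fell on the same array, TR 2. The groups share arrays, so the flags are not independent. The count therefore does not show whether any single flag arose by chance. Each group also pools arrays of more than 1 slide, which the chance rate does not allow for.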

How the results depend on the processing

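None of the 41 genes passed the adjusted p of 0.05 in any comparison under any alternative run (limma). The sign of single genes was less steady: over the alternatives other than leaving out 1 array, it changed in 113 of 777 values for DETR minus SED, 185 of 777 for TR minus SED and 145 of 736 for TR minus DETR, and 13, 5 and 6 of 41 genes kept it throughout. For TR minus SED the median over the genes moved from 0.0315 to 0.1886 within slide 2 and without slide 3, -0.1979 within slide 3, -0.1532 with a replicate block beside slide, 0.1798 without TR 7 and TR 8 and 0.1758 without TR 5, TR 7 and TR 8. For TR minus DETR it moved from -0.1252 to -0.4018 with the replicate block, 0.0964 without slide 3, 0.1437 without TR 7 and TR 8, 0.0666 without TR 2, TR 7 and TR 8 and 0.1375 without TR 5, TR 7 and TR 8. With no slide term, Cox8b over Cox8a was 0.1829 for DETR minus SED and -0.1743 for TR minus DETR, and Cox6a2 over Cox6a1 was 0.4915 for TR minus SED and 0.2543 for TR minus DETR; within slide 3, Cox8b over Cox8a was -0.0809 for DETR minus SED. For TR minus SED the median turned to -0.0789 with normexp background correction, -0.0585 with no slide term, -0.0083 in the authors' table and -0.0113 with quantile normalization. The cause of these shifts was not tested.

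Leaving out 1 array gave medians of 0.0421 to 0.116 for DETR minus SED, -0.0371 (without TR 2) to 0.094 (without TR 7) for TR minus SED and -0.1935 to -0.0027 for TR minus DETR. In the same order, Cox6a2 over Cox6a1 was 0.173 to 0.3083, 0.0302 to 0.1872 and -0.1941 to -0.0195, and Cox8b over Cox8a 0.0041 to 0.1252, 0.0007 to 0.0634 and -0.1145 to 0.043. The replicate block changed no call, and of 24 same-numbered pairs 1 correlated over 0.1 (-0.3723 to 0.2878), so the numbers were not taken as pairing. The arrays of slide 3, the only slide that holds both TR and DETR, had the weakest signal, and the part of this in the precision was not tested.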
